A study of Homo sapiens with 6 samples.

Results

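The RNA levels of 30 genes of cholesterol metabolism were followed through TGF-β1 treatment of LX-2 cells, an established human line of hepatic stellate cells, which produce the collagen of a fibrotic liver. The genes were chosen by name, with earlier results of these data known, so their shares beside those of all genes are descriptive. They matched 30 of the 58735 rows of the deposited count table, 1 row each. Of these, 8 act in the mevalonate pathway, 12 in sterol synthesis from squalene formation onward and 4 in sterol sensing. The others are 4 genes of uptake and transport of cholesterol inside the cell and 2 of efflux. RNA was sequenced from 6 libraries in 2 groups of 3. The LX-2 cells of every library carried no labelled mutation (genotype WT) and had received siRNA against NSUN2, an RNA cytosine methyltransferase, by Lipofectamine 2000. The untreated group had no further agent, and its harvest time is not labelled. The TGF-β1 group was given TGF-β1 at 5 ng/ml, added 48 hours after transfection, and RNA was taken 24 hours later. The design text also names NAT10 for the siRNA, and the sample labels were followed. Cells without the siRNA were not analysed here, so all differences are between the TGF-β1 and untreated groups of siRNA-treated cells. As the untreated harvest time is not labelled, time after transfection may differ too and cannot be told apart from TGF-β1. The replicates are labelled biological, with no word on separate cultures or days, so p-values measure the spread between these libraries.

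Cells make cholesterol from acetyl-CoA. The mevalonate pathway builds the isoprenoid farnesyl diphosphate, which also feeds prenylation, dolichol and ubiquinone; squalene synthesis then commits carbon to sterols, and lanosterol is trimmed to cholesterol in the endoplasmic reticulum. When sterols are scarce, the escort protein SCAP carries the transcription factor SREBP2 to the Golgi, where it is cut and released to activate genes of synthesis and uptake; INSIG proteins hold SCAP back when sterols are plentiful. Oxysterols, in turn, activate the nuclear receptors LXR, which raise efflux genes such as ABCA1. In stellate cells, stored free cholesterol has been linked to sensitivity to TGF-β1.

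The stretches below lie just upstream of the annotated starts of 6 members picked as examples, whose levels rose. TM7SF2, which fell, was also picked but left out, as too little of its window was free of annotated exons. The stretches show the box CCAAT, bound by the factor NF-Y, and a short form of the sterol regulatory element, CACNCCAC, bound by SREBP proteins. Both are in capitals and were searched on both strands, so a box on the other strand reads ATTGG. They are RefSeq sequence of GRCh38.p14, 5′ to 3′ on the gene's strand: HMGCS1 at chr5:43313513-43313662 (minus), MSMO1 at chr4:165327473-165327622 (plus), SREBF2 at chr22:41832929-41833078 (plus), INSIG1 at chr7:155297628-155297775 (plus), STARD4 at chr5:111512591-111512740 (minus) and ABCA1 at chr9:104928238-104928387 (minus).
HMGCS1: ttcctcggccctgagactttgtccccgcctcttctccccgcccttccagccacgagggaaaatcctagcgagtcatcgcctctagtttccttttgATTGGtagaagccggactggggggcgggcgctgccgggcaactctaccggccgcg
MSMO1: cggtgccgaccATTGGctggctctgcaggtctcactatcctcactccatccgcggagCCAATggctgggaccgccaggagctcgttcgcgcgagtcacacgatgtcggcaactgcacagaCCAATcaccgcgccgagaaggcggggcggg
SREBF2: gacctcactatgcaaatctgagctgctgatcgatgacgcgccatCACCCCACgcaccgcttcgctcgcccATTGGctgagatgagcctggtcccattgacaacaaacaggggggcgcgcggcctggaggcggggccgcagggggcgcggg
INSIG1: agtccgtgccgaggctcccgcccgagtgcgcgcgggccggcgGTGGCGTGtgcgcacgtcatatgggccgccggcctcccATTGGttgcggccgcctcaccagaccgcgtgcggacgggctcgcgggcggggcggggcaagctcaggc
STARD4: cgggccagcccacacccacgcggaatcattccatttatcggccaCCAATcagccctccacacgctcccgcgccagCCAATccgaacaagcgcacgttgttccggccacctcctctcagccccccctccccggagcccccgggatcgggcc
ABCA1: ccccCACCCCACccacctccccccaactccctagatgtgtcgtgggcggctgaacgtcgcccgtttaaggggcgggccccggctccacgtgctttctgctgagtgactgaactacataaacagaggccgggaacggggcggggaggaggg

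In windows from 250 bases before to 50 after the start, available for 26 of the 30 genes (not for ACAT2, FDFT1, SQLE or ABCG1), CCAAT was found in 19 genes (73.1%), against 42.7% of 11146 tested genes and 39.7% of all 27305 genes with a window. It was held by 13 of the 15 members with a window that rose and by 2 of the 4 that fell, TM7SF2 and MYLIP. Of the 7 that did not pass the test, 4 held it. The 9-base element TCACNCCAC was found in SREBF2 alone (3.85%, against 1.39% of all genes). The shorter form CACNCCAC, chosen after the data were seen and contained in the longer one, was found in IDI1, SC5D, SREBF2, INSIG1 and ABCA1 (19.2%, against 7.83% of tested genes and 7.05% of all). The E-box CACGTG was found in LSS, SC5D, SCAP, INSIG1 and ABCA1 (19.2%, against 12.3% of tested genes and 8.77% of all), and the LXR repeat, 2 copies of AGGTCA with any 4 bases between them, or a looser form with AGGNCA, in none of the 26 (0.0256% and 0.216% of all genes). These matches describe the letters only, and sites that differ from a pattern at a fixed base were not counted.

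Libraries held 25828504 to 30034762 counts, and the 30 genes had 41 to 7203 counts each per library. NSUN2 was measured in every library (2364 to 2781 counts, with groups at 82.9 ± 1.47 and 100.5 ± 3.07 normalised CPM, SD, n = 3), so its knockdown could not be judged without cells lacking the siRNA; it was higher with TGF-β1 (log2 fold change 0.28 ± 0.04). CPM here are counts scaled to a common library size with TMM factors, which adjust for RNA composition. Groups lay apart on the leading principal component (58.7% of variance), and TGF-β1 replicates 1, 2 and 3 scored 33.1, -6.29 and -27.4 on the next (12.1%). Of 12 stellate markers 10 were expressed enough to test, led by COL1A1, with 1418 and 3993 CPM in the untreated and TGF-β1 groups, while LRAT was at 0 counts and COL1A2 averaged 1.30 and 3.18 CPM. Markers of hepatocytes summed to 21.1 to 27.5 CPM, nearly all SERPINA1, with APOH, FGB and TTR at 0 counts. Those of macrophages summed to 11.4 to 14.7 CPM untreated and 14.7 to 17.9 with TGF-β1, with C1QA and C1QB at 0 counts. In that sum CSF1R went from 4.34 to 12.3 CPM (edgeR adjusted p = 1.27e-11) and CD14 from 8.49 to 3.71 CPM (0.0014). Those of cholangiocytes summed to 28.5 to 31.3 CPM untreated and 19.8 to 24.1 with TGF-β1, with CFTR at 0 counts. Within it SPP1 went from 26.9 to 17.6 CPM (edgeR adjusted p = 1.26e-07) and KRT7 from 2.83 to 4.30 CPM (0.0164). Those of endothelium summed to 1.58 to 2.72 CPM with CLEC4G and LYVE1 at 0 counts. The part of these markers in the results was not tested. In bulk RNA, fewer cells with a transcript and less of it per cell cannot be told apart.

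With TGF-β1, 14 of the 20 genes of cholesterol synthesis rose, in the mevalonate steps and in the sterol steps. The rises were led by ABCA1 (2.22-fold), HMGCS1 (2.00-fold), STARD4 (2.00-fold), SQLE (1.85-fold) and MSMO1 (1.83-fold). The falls were led by the sterol reductase gene TM7SF2, 2.51-fold lower. Of the 30 genes, all passed the filter on low counts, and 18 rose, 4 fell and 8 did not pass the test (adjusted p under 0.05 by edgeR's quasi-likelihood test, with Benjamini-Hochberg adjustment over all 17215 tested genes). Of all tested genes 38.9% passed the test, 20.2% rose and 18.7% fell, and of those with a mean of at least 5 CPM, as 29 of the 30 had, 27.8% rose and 23.0% fell. The median log2 fold change was 0.23, beside -0.01 over all tested genes. Groups did not overlap for 22 of the 30, against 47.4% of tested genes. At a log2 fold change of at least 0.5, 9 of the 30 rose, against 6.46% of tested genes. When only library totals set the scale, 13 were higher and 7 lower, against 11.7% and 31.1% of all tested genes, while the median of all genes was -0.13, and 27.4% of all calls over the table were then higher, against 51.8% with TMM factors. Without TGF-β1 replicate 1 the counts were 18 higher and 6 lower, and without TGF-β1 replicate 3, or without untreated replicate 3, they were 16 and 4.

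**Figure D1:**
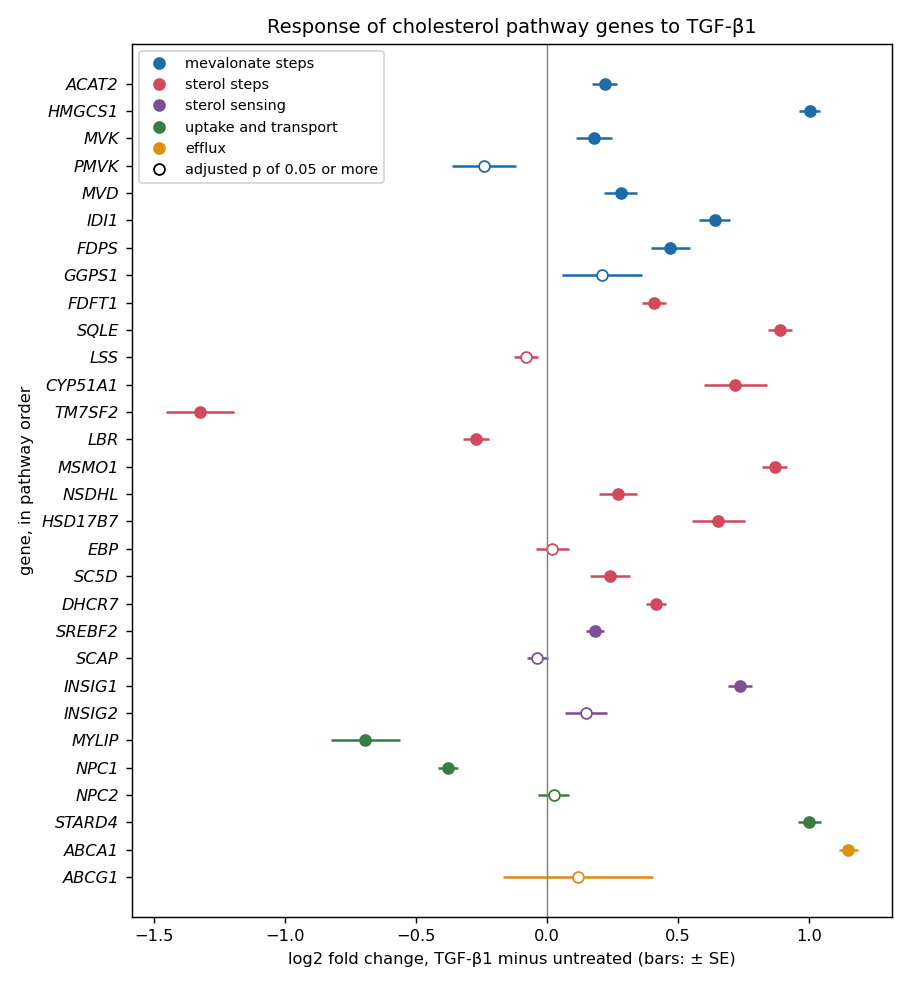
Log2 fold change (TGF-β1 minus untreated, n = 3 each) of the 30 genes in pathway order, with bars of ± 1 SE from edgeR; filled points passed the test and open points did not. Most points of synthesis genes lie right of 0, with TM7SF2 at -1.33 and LBR at -0.27 to the left.

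Of the 8 mevalonate genes, 6 (75%) rose and none fell in edgeR, against 27.8% and 23.0% of all genes averaging 5 CPM or more. None fell at an unadjusted p under 0.05 in the main fit or in DESeq2. At that threshold 1 gene fell with upper-quartile factors, with no filter or a filter of 1 CPM, and with a replicate block. The same held without untreated replicate 2 or TGF-β1 replicate 1. Library totals alone gave 4 higher and PMVK lower. HMGCS1, the synthase that joins acetoacetyl-CoA and acetyl-CoA to HMG-CoA (ENSG00000112972, chromosome 5, 43289395 to 43313512, minus strand, hg38), stood at 96.0, 90.7 and 94.4 CPM in untreated replicates 1, 2 and 3 and at 189, 188 and 186 CPM with TGF-β1. All TGF-β1 libraries were high and close together, and the log2 fold change was 1.00 ± 0.04 (SE; edgeR adjusted p = 1.08e-24). IDI1, the isomerase that makes the reactive isoprene unit, had 43.9, 39.7 and 41.7 CPM untreated and 63.6, 68.9 and 62.6 CPM with TGF-β1. Its groups lay apart, with a log2 fold change of 0.64 ± 0.06 (edgeR adjusted p = 1.79e-12). FDPS, which builds farnesyl diphosphate, went from 24.6 ± 1.20 to 34.1 ± 0.960 CPM (SD, n = 3), a log2 fold change of 0.47 ± 0.07.

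The other mevalonate genes differed less. The decarboxylase MVD rose by 0.28 ± 0.06 on the log2 scale and the thiolase ACAT2, which makes acetoacetyl-CoA, by 0.22 ± 0.05, and for both genes the groups did not overlap. Other annotated genes cover 52.3% of the exonic bases of ACAT2. Of these, TCP1, on the opposite strand, stood at 288 and 359 CPM in the untreated and TGF-β1 groups. It rose by 0.32 ± 0.03 on the log2 scale. An overlapping SOD2 entry had 0 to 2 counts per library. Whether reads shared with TCP1 add to the level of ACAT2 was not tested. Mevalonate kinase (MVK) rose by 0.18 ± 0.07 (edgeR adjusted p = 0.0365), a call lost without untreated replicate 1 (0.128), untreated replicate 3 (0.0937), TGF-β1 replicate 2 (0.0908) or TGF-β1 replicate 3 (0.121). MVK also missed the threshold in DESeq2 (0.0734), with upper-quartile factors (0.128), library totals alone (0.526) or no filter on low counts (0.0665) in edgeR, and in limma without a filter (0.0779). PMVK, the next kinase, did not pass the test (log2 fold change -0.24 ± 0.12). Its TGF-β1 libraries were uneven, at 12.2, 9.77 and 8.81 CPM against 13.0, 11.0 and 12.3 CPM untreated. Without TGF-β1 replicate 1 PMVK was called lower (-0.38, edgeR adjusted p = 0.0190). GGPS1, which extends farnesyl to geranylgeranyl diphosphate for prenylation, had a log2 fold change of 0.21 ± 0.15 and overlapping groups, and shares 41.0% of its exonic bases with other genes. On the deposited FPKM scale, which divides by gene length, the levels of these 8 genes summed to 77.0 ± 2.94 untreated and 108.5 ± 1.55 with TGF-β1 (SD, n = 3). The groups did not overlap, and the exact two-sided permutation test gave p = 0.1, the smallest it allows with 3 against 3.

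Of the 12 sterol genes, 8 (66.7%) rose and 2 (16.7%) fell, or 6 and 3 with library totals alone. Of all genes averaging 5 CPM or more 27.8% rose and 23.0% fell. Squalene epoxidase (SQLE), which adds the oxygen to squalene and is a rate-limiting enzyme, was at 60.6, 59.4 and 59.0 CPM untreated and at 114, 106 and 112 CPM with TGF-β1. The groups were far apart beside their spread, with a log2 fold change of 0.89 ± 0.05 (edgeR adjusted p = 3.62e-20). MSMO1, the methyl sterol oxidase that begins removal of the methyl groups at carbon 4, had 69.2, 60.0 and 67.7 CPM untreated and 118, 118 and 124 CPM with TGF-β1. It rose by 0.87 ± 0.05 on the log2 scale (edgeR adjusted p = 5.82e-19). Squalene synthase (FDFT1) rose by 0.41 ± 0.05, and DHCR7, the reductase of a last step to cholesterol, also by 0.41 ± 0.04, from 132 ± 2.58 to 175 ± 8.41 CPM (SD, n = 3).

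CYP51A1, the lanosterol demethylase, was at 7.74, 8.11 and 7.85 CPM untreated and 13.5, 11.4 and 14.1 CPM with TGF-β1, a log2 fold change of 0.72 ± 0.12. Other annotated genes cover 83.2% of its exonic bases, and 2 of these, AC000120.2 and AC000120.3, had no count in any library. HSD17B7, a ketosteroid reductase of the demethylation that MSMO1 begins, rose by 0.65 ± 0.10. Its pseudogene copy HSD17B7P2 had 28 to 71 counts per library. NSDHL, the dehydrogenase that works beside MSMO1, rose by 0.27 ± 0.07. The desaturase SC5D rose by 0.24 ± 0.08 (edgeR adjusted p = 0.0115), a call lost without untreated replicate 3 (0.115) or TGF-β1 replicate 3 (0.0559). SC5D also missed the threshold with library totals alone in edgeR (0.218) and in all limma fits on FPKM (adjusted p 0.0538 to 0.127). EBP, the sterol isomerase, had a log2 fold change of 0.02 ± 0.06 and overlapping groups. LSS, which closes squalene epoxide into lanosterol, did not pass the test at -0.08 ± 0.05, with 109, 101 and 106 CPM untreated and 107, 96.5 and 95.9 CPM with TGF-β1. As with PMVK, TGF-β1 replicate 1 was the highest of its group, and without it LSS was called lower (-0.13, edgeR adjusted p = 0.0307). Summed FPKM of the 12 sterol genes went from 156.0 ± 0.237 to 201.1 ± 1.49 (SD, n = 3; exact two-sided permutation p = 0.1).

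The sterol genes that fell, TM7SF2 and LBR, encode the 2 enzymes with sterol delta-14 reductase activity, which act on the product of CYP51A1; LBR is also the lamin B receptor of the inner nuclear membrane. TM7SF2 (ENSG00000149809, chromosome 11, 65111845 to 65116384, plus strand, hg38) had 12.7, 15.5 and 17.3 CPM untreated and 6.59, 5.30 and 6.26 CPM with TGF-β1. Every TGF-β1 library was well under every untreated one, and the log2 fold change was -1.33 ± 0.13 (edgeR adjusted p = 1.41e-11). LBR had 89.4, 88.6 and 85.1 CPM untreated and 79.0, 70.3 and 69.1 CPM with TGF-β1. Its groups did not overlap either, and the log2 fold change was -0.27 ± 0.05 (edgeR adjusted p = 1.96e-05). Per gene length LBR was the more abundant of the pair in all libraries: TM7SF2 made up 18.0%, 21.2% and 23.8% of their summed FPKM untreated and 11.4%, 10.4% and 12.3% with TGF-β1. The sum itself went from 20.5 ± 0.288 to 15.2 ± 1.13 FPKM (SD, n = 3), without overlap (exact two-sided permutation p = 0.1 for the share and for the sum).

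**Figure D2:**
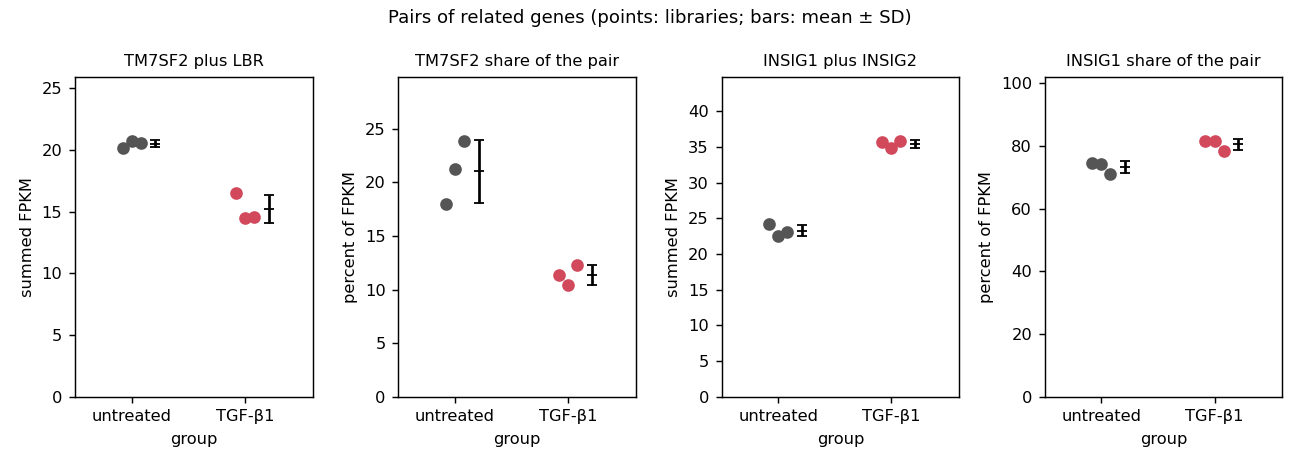
Summed FPKM and share of FPKM for TM7SF2 with LBR and for INSIG1 with INSIG2; points are libraries and bars show the mean ± SD of 3. The summed level of the reductases was lower with TGF-β1 and that of the INSIG genes was higher, with no overlap between groups in any panel.

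Of the 4 sterol sensing genes, 2 (50%) rose and none fell in edgeR. Of all genes averaging 5 CPM or more 27.8% rose and 23.0% fell, and a list of 4 is too short to compare with those shares. None fell at an unadjusted p under 0.05 in the main fit or in DESeq2, while 1 did with upper-quartile factors. INSIG1, itself a target of SREBP2, had 67.5, 63.0 and 61.9 CPM untreated and 109, 106 and 105 CPM with TGF-β1. Groups were far apart, and the log2 fold change was 0.74 ± 0.05 (edgeR adjusted p = 2.84e-17). INSIG2, its relative that is not driven by SREBP2 in the same way, had 25.1, 23.7 and 27.3 CPM untreated and 26.8, 26.3 and 31.3 CPM with TGF-β1, which overlap (log2 fold change 0.15 ± 0.08). The share of INSIG1 in the FPKM of both went from 73.2% ± 1.90 to 80.5% ± 1.76 (SD, n = 3; exact two-sided permutation p = 0.1). SREBF2, which encodes SREBP2, stood at 209, 221 and 210.0 CPM untreated and 240.3, 239 and 247 CPM with TGF-β1. That is a small rise of 0.18 ± 0.03 on the log2 scale with separate groups (edgeR adjusted p = 2.49e-05), and it did not pass with library totals alone (0.07, edgeR adjusted p = 0.131). SCAP was at 132 ± 4.39 and 129 ± 2.33 CPM (SD, n = 3), a log2 fold change of -0.04 ± 0.04; with library totals alone SCAP was called lower (-0.16).

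The genes of uptake and transport went in different directions, with 1 of 4 (25%) higher and 2 (50%) lower. Of all genes averaging 5 CPM or more 27.8% rose and 23.0% fell, and this list of 4 is again too short to compare. STARD4, a soluble carrier that moves sterol between membranes and a target of SREBP2, had 66.4, 66.0 and 67.1 CPM untreated and 139.7, 134 and 126 CPM with TGF-β1. All TGF-β1 libraries were high, and the log2 fold change was 1.00 ± 0.05 (edgeR adjusted p = 2.52e-22). Its antisense gene STARD4-AS1 overlaps its start and rose as well. NPC1, the lysosomal membrane protein that exports cholesterol freed from lipoproteins, had 175, 173 and 171 CPM untreated and 130.1, 138 and 131 CPM with TGF-β1. It fell in every TGF-β1 library, by 0.38 ± 0.04 on the log2 scale (edgeR adjusted p = 2.16e-11). Its partner NPC2, a soluble protein that hands cholesterol to NPC1, had a log2 fold change of 0.03 ± 0.06, with 43.0 to 46.3 CPM untreated and 45.0 to 46.8 CPM with TGF-β1. MYLIP, a ubiquitin ligase that degrades lipoprotein receptors and is a target of LXR, had 11.5, 9.58 and 10.7 CPM untreated and 6.23, 6.66 and 6.76 CPM with TGF-β1. Its groups did not overlap, and the log2 fold change was -0.69 ± 0.13 (edgeR adjusted p = 2.67e-05).

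Efflux was represented by a pair of ATP-binding cassette transporters, both known LXR targets. ABCA1, which loads cholesterol onto lipid-poor apolipoprotein (ENSG00000165029, chromosome 9, 104781002 to 104928237, minus strand, hg38), had 119, 119 and 112 CPM untreated and 265, 251 and 261 CPM with TGF-β1. Libraries of a group were close together, and the log2 fold change was 1.15 ± 0.04 (edgeR adjusted p = 1.43e-27). ABCG1, which exports cholesterol to mature lipoprotein particles, was low throughout, at 41 to 64 counts per library and 1.46 to 2.34 CPM. Its groups overlapped, with a log2 fold change of 0.12 ± 0.29 and the largest standard error of the 30 genes. Of the 3 members known as LXR targets, ABCA1 rose, MYLIP fell and ABCG1 did not pass the test.

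**Figure D3:**
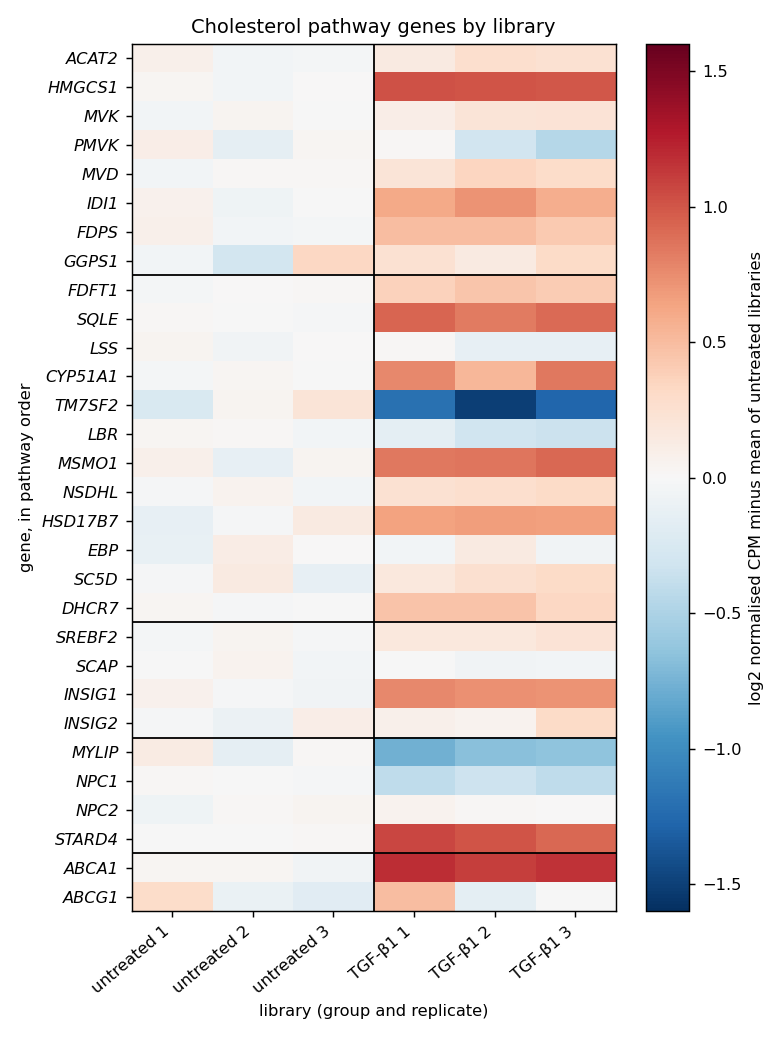
Log2 normalised CPM of each gene in each library minus the mean of its untreated libraries, in pathway order with lines between the groups of genes. The 3 TGF-β1 columns share the same colours for HMGCS1, SQLE, MSMO1, INSIG1, STARD4 and ABCA1 (high) and for TM7SF2, MYLIP and NPC1 (low), while PMVK and LSS are nearer 0 in TGF-β1 replicate 1 than in replicates 2 and 3.

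Levels per gene length can be compared between genes on the FPKM scale. For ACAT2, GGPS1 and CYP51A1, which share many exonic bases with other genes, this scale may misstate the level, which was not tested. In untreated cells DHCR7 was highest (30.7 ± 0.681 FPKM, SD, n = 3), then SREBF2 (27.4 ± 0.778) and MSMO1 (22.0 ± 1.71), and ABCG1 was lowest (0.267 ± 0.051). EBP, SCAP and HMGCS1 followed at 20.2 ± 1.67, 19.9 ± 0.644 and 19.3 ± 0.604 FPKM, differences within their spread. With TGF-β1 the order became DHCR7 (41.0 ± 1.90), MSMO1 (40.3 ± 1.16) and HMGCS1 (38.8 ± 0.289), of which DHCR7 and MSMO1 lie within their spread. STARD4 went from rank 16 to rank 7, ABCA1 from 17 to 8 and SQLE from 13 to 6, while NPC1 went from 9 to 18 and LBR from 10 to 16. TGF-β1 replicates 1, 2 and 3 held the highest CPM of their group for 13, 8 and 9 genes and the lowest for 10, 9 and 11.

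**Figure D4:**
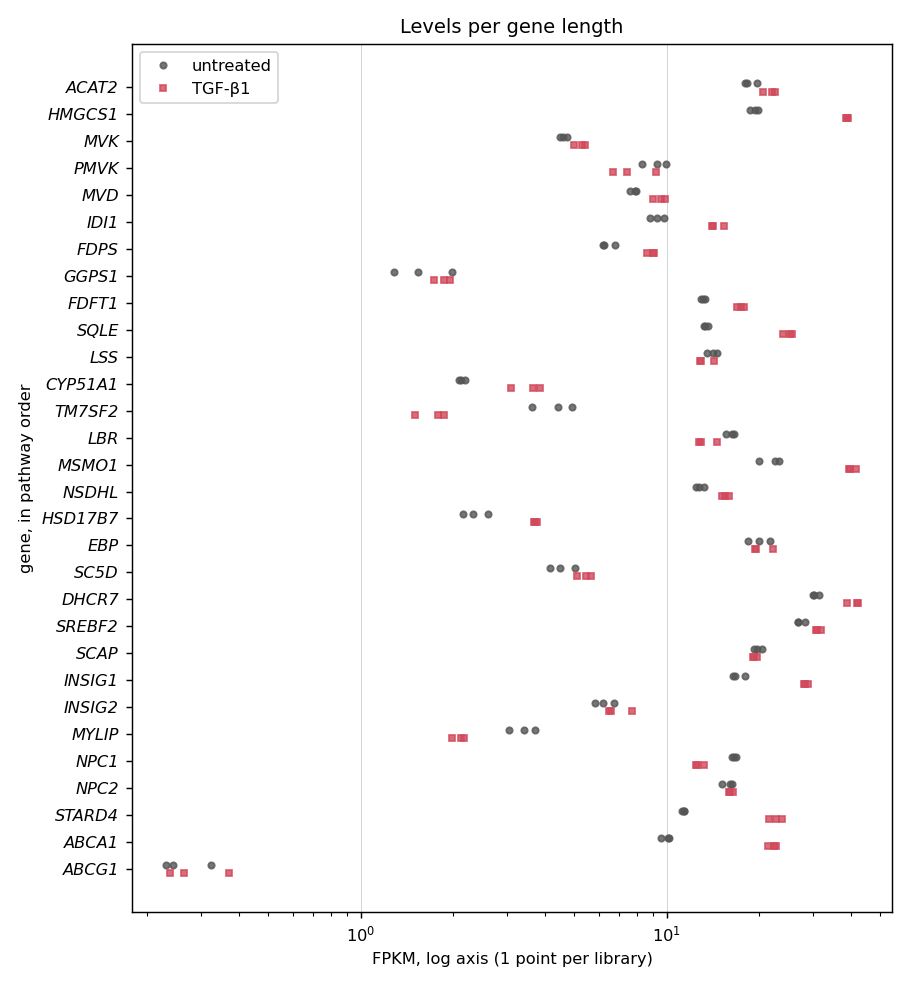
FPKM of the 30 genes in each library on a log axis, untreated in grey and TGF-β1 in red. Synthesis genes span from GGPS1 at 1.61 to DHCR7 at 30.7 FPKM in untreated cells, and ABCG1 lies below all others.

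A further 70 genes of the pathway were listed by role, also with earlier results of these data known. Of these 66 could be tested, 19 rose and 19 fell (28.8% each), with a median log2 fold change of -0.01. These shares are near those of all genes averaging 5 CPM or more (27.8% and 23.0%) and above those of all tested genes (20.2% and 18.7%). With library totals alone, where 11.7% of all tested genes were higher and 31.1% lower, 8 of the 66 were higher and 32 lower. Among genes of the SREBP processing machinery 6 of 14 (42.9%) rose and none fell in edgeR. None fell at an unadjusted p under 0.05 in the main fit or in DESeq2. At that threshold 1 fell without untreated replicate 3 or without TGF-β1 replicate 1. The direction depended on scaling: library totals alone gave 3 higher and 4 lower, and upper-quartile factors 5 and 1. SEC24D and SEC23A, coat proteins of the vesicles that carry SCAP and other cargo to the Golgi, rose by 0.34 ± 0.04 and 0.29 ± 0.03 on the log2 scale, and SREBF1, which encodes SREBP1, by 0.28 ± 0.06. In the isoprenoid branches 4 of 14 (28.6%) rose and 2 (14.3%) fell, shares close to those of all genes, against 2 and 4 with library totals alone. Without untreated replicate 1, untreated replicate 3 or TGF-β1 replicate 3 the branches had 2 higher and 1 lower, and without TGF-β1 replicate 1 they had 4 and 1. RABGGTB, a subunit of the enzyme that prenylates Rab proteins, rose by 0.42 ± 0.05, and NUS1, of dolichol synthesis, by 0.31 ± 0.05. COQ2, of ubiquinone synthesis, fell by 0.27 ± 0.07. RCE1 (0.18) and ZMPSTE24 (0.16), proteases that process prenylated proteins, also rose and PDSS2 (-0.23), of ubiquinone synthesis, also fell. These 3 were named after their values were seen, and each lost its call without untreated replicate 1, without untreated replicate 3 and without TGF-β1 replicate 3.

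Genes of lipoprotein uptake and lysosomal release fell in 7 of 14 cases (50%) and rose in 3 (21.4%). Of all tested genes 18.7% fell and 20.2% rose, or 23.0% and 27.8% of those averaging 5 CPM or more. With library totals alone 10 of the 14 fell and 1 rose, where 31.1% of all tested genes were lower and 11.7% higher. The endocytic adaptor DAB2 fell by 0.65 ± 0.04 on the log2 scale, and the lipoprotein receptor VLDLR had a log2 fold change of -0.42 ± 0.08. LRP12, a member of the same receptor family, rose by 1.11 ± 0.05, and the others that rose, LRP8 (0.16) and the clathrin heavy chain CLTC (0.14), were named after their values were seen. Genes of intracellular sterol transport and esterification were divided, with 6 of 14 higher and 6 lower (42.9% each). This compares with the 27.8% and 23.0% of all genes averaging 5 CPM or more. With library totals alone 2 were higher and 8 lower. The caveolar protein CAV1, which binds cholesterol, fell from 446 ± 11.7 to 188 ± 3.98 CPM (SD, n = 3; log2 fold change -1.25 ± 0.03). SOAT1, which esterifies cholesterol for storage, fell by 0.41 ± 0.05, and NCEH1, a hydrolase of cholesteryl esters, fell by 0.56 ± 0.04.

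Among LXR, its partners and oxysterol enzymes 10 of 14 could be tested, of which none rose and 4 (40%) fell in edgeR. None rose at an unadjusted p under 0.05 in the main fit or in DESeq2. In limma on FPKM, 1 rose at that threshold with the filter on mean FPKM and 2 without a filter. With library totals alone 6 fell, and without untreated replicate 1 or without TGF-β1 replicate 3 only 2 did. Over all tested genes 18.7% fell, or 23.0% of those averaging 5 CPM or more. The transporter ABCA7 fell from 36.3 ± 1.89 to 20.2 ± 1.47 CPM (log2 fold change -0.85 ± 0.08) and the partner receptor RXRA by 0.26 ± 0.08. ABCA2 had a log2 fold change of -0.16 ± 0.06 (edgeR adjusted p = 0.0444), a call kept only without TGF-β1 replicate 1 among the fits that leave out 1 library (adjusted p up to 0.411). NCOR1 (-0.10), a corepressor, was named after its values were seen. Its call was lost without untreated replicate 1 (edgeR adjusted p = 0.0717), TGF-β1 replicate 1 (0.0834) or TGF-β1 replicate 3 (0.0567), and in all 3 limma fits on FPKM (0.0649 to 0.0915). The LXR genes NR1H2 and NR1H3 did not pass the test, with log2 fold changes of -0.03 ± 0.04 and -0.07 ± 0.16, though with library totals alone NR1H2 was called lower (-0.15).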

How the data were processed

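RNA of 6 LX-2 libraries was sequenced, and the authors deposited a table of read counts per gene and a table of FPKM (fragments scaled by gene length and library size) for the same 58735 genes. The submitters' processing notes name fastp, HISAT2 2.2.1 and the build hg38. For the counting tool, its use of strand and the FPKM formula, nothing is stated in the labels or tables used here. Dividing out gene length, the deposited FPKM implied library sizes of 1.07 to 1.08 times the summed counts untreated and 0.984 to 0.987 with TGF-β1. The TMM factors also split by group, at 1.04 untreated and 0.957 to 0.963 with TGF-β1. The FPKM thus carry a scaling that differs by group, and fits on them are no independent check of the TMM scaling. Each table held 6 further per-sample columns that matched no sample here and were not used.

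Counts were tested with edgeR 4.0.16 (TMM, filterByExpr with its minimum count of 10, robust quasi-likelihood F-test, R 4.3.3), TGF-β1 against untreated, with Benjamini-Hochberg adjustment over 17215 genes and a threshold of 0.05. Of 58735 genes, 33743 had at least 1 count. Totals of 25828504 to 30034762 counts and a biological coefficient of variation of 5.62% set the precision. Replicates of a group differed by 3.63 to 4.88 times the sampling noise (chi-square per degree of freedom), so none was counted as a duplicate. The script was tested on simulated data. Alternatives were other size factors, filters, DESeq2 1.42.0, limma 3.58.1 on log2(FPKM + 1) and log2(FPKM + 0.1), a replicate block, and leaving out each library.

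Members and lists were chosen with earlier results of these data known. All 30 members were to be described, NSUN2, and from each further list up to 3 called genes of the largest change with a mean of at least 5 CPM. Some genes of the pathway were left out of the lists and are not analysed here. Gene positions and exon overlaps come from GENCODE 29, and promoter sequences from RefSeq (GRCh38.p14).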

Additional observations from a re-analysis of the deposited data

How the results depend on the processing

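Of the 30 genes, 22 kept the same call under all 16 alternatives and no called change reversed its direction. The exceptions were ACAT2, MVK, PMVK, LSS, NSDHL, SC5D, SREBF2 and SCAP. Library totals alone, under which the median over all genes was -0.13 (log2), gave 7 members lower (13 higher) with a median of 0.11. The same scaling gave 2019 genes higher and 5354 lower over the whole table, and 8 higher and 32 lower among the further pathway genes. Without a filter on FPKM, limma on log2(FPKM + 1) gave 1978 genes lower, and 12 higher and 12 lower among the further genes. The cause was not tested. Leaving out 1 library gave 16 to 18 members higher, 4 to 6 lower and medians of 0.21 to 0.27. Over the whole table it gave 3089 to 3366 higher and 2850 to 3009 lower, and among the further genes 16 to 18 higher and 15 to 17 lower.

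Replicate numbers did not pair the libraries: deviations of same-numbered libraries correlated at -0.0049, 0.0111 and -0.0091. With the replicate block 18 members were higher and 4 lower (median 0.23), with 3431 and 3182 of all genes and 19 and 18 of the further genes. Where other genes share exons with a member, counts could be divided between them, as for ACAT2 (52.3% of exonic bases) and GGPS1 (41.0%). For CYP51A1 (83.2%) the overlapping genes AC000120.2 and AC000120.3 had no count in any library, and CYP51A1-AS1 had 1 to 7. Whether reads shared with them were left out was not tested. Depth limits ABCG1, at 41 to 64 counts.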

Other observations

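Antisense genes overlap the starts of a pair of members. STARD4-AS1 (chromosome 5, 111512226 to 111739726, plus strand, hg38) had 121, 197 and 138 counts in untreated replicates 1, 2 and 3 and 367, 377 and 403 counts with TGF-β1. All TGF-β1 libraries were higher, with a log2 fold change of 1.51 ± 0.14 (edgeR adjusted p = 1.21e-11), and STARD4 on the other strand rose as well. SREBF2-AS1 (chromosome 22, 41831215 to 41834665, minus strand) had 146, 157 and 149 counts untreated and 100, 110 and 78 counts with TGF-β1. Its log2 fold change was -0.47 ± 0.18 (edgeR adjusted p = 0.0342), while SREBF2 rose. The labels do not state whether counting used strand, so reads of each gene and its antisense partner may be mixed.

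The pseudogene CYP51A1P2, a processed copy of CYP51A1, had 8 to 21 counts per untreated library and 45 to 51 with TGF-β1, the direction of its parent. Reads of copies this alike can be placed on either gene, and their division was not tested.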
